A study of Mus musculus with 56 samples.

Results

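Lung gene expression at the highest dose of chrysene was set against that at the lowest dose, without the vehicle animals, on 10 of the series' 56 arrays. The arrays were chosen by their titles: tissue lung, dose group D3 (5 mice, numbers 16 to 20) or D1 (5 mice, numbers 6 to 10). All were male MutaMouse animals of about 14 weeks, a transgenic strain that carries a bacterial reporter gene in every cell so that mutations can be scored in any tissue. They were gavaged on each of 28 days with chrysene in olive oil, at 17.5 mg/kg-bw/day in D1 and 150 mg/kg-bw/day in D3, and tissues were collected 72 h after the last dose. Total RNA came from random sections of the right lung lobe, 1 mouse per array. It was labelled with Cy5 and hybridized beside a universal reference RNA pooled from 11 mouse cell lines, labelled with Cy3, so that each value is a log2 ratio of lung to reference. The same reference was on every array, and only differences between arrays of the same probe are compared below. Lungs of 5 olive oil controls (D0) and of 3 mice at 50 mg/kg-bw/day (D2) are given beside as description and enter no test unless stated.

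Chrysene is a polycyclic aromatic hydrocarbon. Hydrocarbons of this class bind the aryl hydrocarbon receptor (AhR), a transcription factor that pairs with Arnt, binds a short DNA element and induces the cytochrome P450 enzymes Cyp1a1 and Cyp1b1, which oxidize the hydrocarbon. The products can bind DNA, and damaged DNA activates p53, whose targets include the cell cycle inhibitor Cdkn1a and the ubiquitin ligase Mdm2. NRF2, the transcription factor of the response to oxidative and electrophilic stress, shares targets such as Nqo1 with AhR. The lung also keeps a strong daily rhythm, with Arntl and Clock at its positive arm and Dbp, Nr1d1 and Per2 among its outputs.

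The Cy5 signal was well above background at 50.9% to 55.2% of the probes on the 10 arrays, and 31488 probes (23478 genes by symbol or accession) were tested. The alveolar type 2 list, which marks the surfactant-producing cells of the lung, averaged 4.84 to 5.08 in D1 and 4.67 to 5.01 in D3 on the log2 ratio scale, so the defining markers of lung were present. Mice 17 and 19 of D3 stood apart. Their skeletal muscle list averaged 4.74 and 4.64, against -0.71 to -0.20 on the other 8 arrays, and their keratinocyte list averaged 2.85 and 3.33, against -0.34 to -0.16. Values without these arrays are therefore given beside those with all mice, with the share of all probes (2.89% higher, 2.85% lower at an unadjusted p of 0.05) as their background. The D1 arrays all lay in column 2 of their slides and the D3 arrays in column 4, or in column 3 for mouse 16, so that column and dose cannot be told apart. The 3 slides each held both groups.

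A single probe passed the limits of an adjusted p of at most 0.05 and a fold change of at least 1.5, which is 0.00318% of the probes tested. At an unadjusted p of at most 0.05, 961 probes (3.05%) were higher in D3 and 2032 (6.45%) were lower, and 192 (0.61%) and 371 (1.18%) had D3 arrays that all lay above or all lay below the D1 arrays. The median difference over all probes was -0.04 on the log2 scale. The split depended on the scaling. In the authors' scaling 32.1% of the probes at that p were higher. After loess of the scanner signals 49.5% were (1366 higher, 1392 lower). After centring on the median 9.79% were (354 higher, 3263 lower), and the median difference moved to -0.10. Counts of list members under those scalings are to be read beside these counts, of 31488 probes tested. Without mice 17 and 19, 911 probes (2.89%) were higher and 896 (2.85%) were lower at that p, and 353 and 622 probes were in both counts. The same step cut the probes with a mean difference of 1.5-fold or more from 720 to 70 among the higher ones and from 42 to 25 among the lower ones. The median SD between mice was 0.13 in D1 and 0.17 in D3 (n = 5 each), and 0.11 over the 3 other D3 mice. In bulk tissue, fewer cells of a type and less RNA per cell cannot be told apart.

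The probe that passed, A_55_P1985015, is annotated to Pard3, a scaffold protein of the Par complex that sets apical and basal polarity and builds tight junctions in epithelia. It was named after its values were seen, since it is not the brightest of the 4 Pard3 probes. In D1 its log2 ratios were 0.70, 0.71, 0.34, 0.30 and 0.45 in mice 6 to 10, and in D3 they were -0.83, -0.92, -0.77, -0.74 and -0.87 in mice 16 to 20. The groups did not overlap, and each was narrow beside the gap between them. The mean difference was -1.33 (SE 0.09, 95% interval -1.53 to -1.12, adjusted p = 0.000576, limma), which is 2.51-fold lower in D3. The difference was -1.62 on slide 1, -1.08 on slide 2 and -1.30 on slide 3. It was -1.33 without mice 17 and 19 (adjusted p = 0.00716). The probe was well above background on all 18 lung arrays, with a Cy5 median signal of 419 to 575 in D1 and 180 to 230 in D3.

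The vehicle mice did not lie at a level of their own. Mice 1 and 3 of D0 had log2 ratios of 0.79 and 0.71, while mice 2, 4 and 5 had -0.77, -0.82 and -1.01. In D2, mice 12 and 13 had 0.56 and 0.75, and mouse 15 had -0.78. No lung array lay between -0.74 and 0.30, so that the values formed a high and a low cluster, with the D1 mice in the high one, the D3 mice in the low one and D0 and D2 mice in both. With all 18 lung arrays in the fit, whose shared spread then included these clusters, the difference was the same and no longer passed (adjusted p = 0.362). In liver the probe read -0.26 to 0.31 in the D1 mice and -0.68 to -0.24 in the D3 mice. In D2 it read 0.13 and 0.09 in mice 12 and 13, -0.62 in mouse 15 and -0.63 in mouse 11, which has no lung array. In forestomach D1 read 1.10 to 2.59 and D3 0.64 to 1.52, and D2 read 1.68 and 1.61 in mice 12 and 13 and 0.53 and 0.49 in mice 15 and 11. Of the vehicle mice, mice 1 and 3, high in lung, had 0.29 and 0.11 in liver, and mice 2 and 4, low in lung, had -0.63 and -0.48. Mouse 5, low in lung, had 0.11 in liver. In forestomach the 5 vehicle mice read 0.70 to 1.46. The other 3 Pard3 probes did not show the pattern, and 1 of them lay the opposite way. A_52_P51548, annotated to the same transcript, differed by -0.03 (SE 0.08, adjusted p = 0.894), A_55_P1985012 by -0.16 (SE 0.13, adjusted p = 0.651) and A_55_P1985025 by 0.28 (SE 0.09, adjusted p = 0.515), with all its D3 arrays above its D1 arrays. Where in the gene each probe lies was not determined here, and the probe sequences were not used here.

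**Figure D1:**
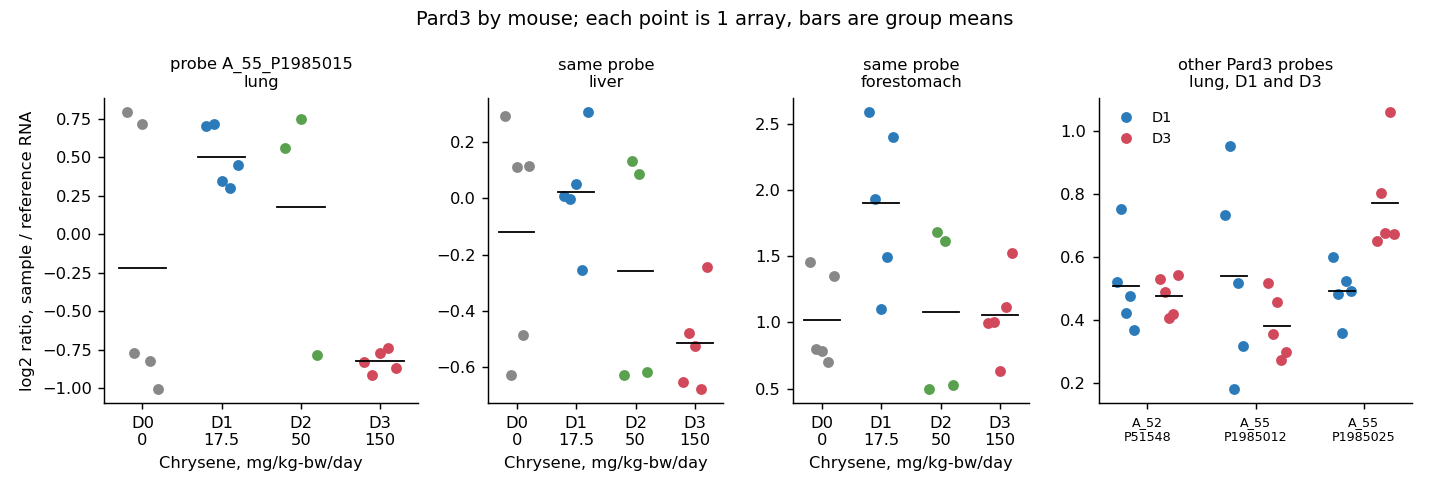
Log2 ratio of the Pard3 probe A_55_P1985015 by chrysene dose (mg/kg-bw/day) in lung, liver and forestomach, and of the 3 other Pard3 probes in lung in D1 and D3. Each point is 1 array and bars are group means. In lung the D1 mice lie at 0.30 to 0.71 and the D3 mice at -0.92 to -0.74, while D0 and D2 mice occupy both levels.

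The next smallest adjusted p in the comparison was 0.233. It belonged to a probe known by the accession ENSMUST00000090438, likewise named after its values were seen, and no gene name was assigned to it here. Its log2 ratios were -0.65, -0.64, -0.88, -0.77 and -0.60 in mice 6 to 10 and -0.21, 0.03, 0.18, 0.16 and -0.19 in mice 16 to 20. All D3 arrays lay above all D1 arrays, with a mean difference of 0.70 (SE 0.10), which was 0.33 after centring on the median. The vehicle mice had -0.37 to -0.08 and the D2 mice -0.29 to -0.22, so that D1 was the group that stood lower. With all 18 arrays in the fit this was the probe that passed (adjusted p = 0.00619), in place of Pard3.

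By the rule fixed for naming genes, 12 genes were at least 1.5-fold higher and 6 at least 1.5-fold lower in D3 with no overlap of the groups. None passed after adjustment (adjusted p = 0.515 for each). Without mice 17 and 19, 1 of the 12 and 0 of the 6 kept a 1.5-fold difference, although all 18 kept their sign.

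The gene with the smallest p of these was F13a1, the catalytic subunit of coagulation factor XIII, which is made by tissue macrophages. Its log2 ratios were 1.93, 1.84, 2.16, 1.65 and 1.68 in D1 and 2.29, 3.08, 2.38, 2.63 and 2.50 in D3, a difference of 0.72 (SE 0.15). Every D3 mouse was above the highest D1 mouse, the difference was 0.54 without mice 17 and 19, and the vehicle mice spanned 1.38 to 2.42. Spib, a transcription factor of B cells and plasmacytoid dendritic cells, read 0.98 to 1.57 in D1 and 1.83 to 3.13 in D3, with the highest value in mouse 19. Its difference was 0.85 (SE 0.22), or 0.59 without mice 17 and 19, and it is the gene that kept 1.5-fold. Tnfrsf13c, the BAFF receptor that keeps mature B cells alive, read 0.89 to 1.30 in D1, 1.38 to 1.76 in mice 16, 17, 18 and 20, and 2.99 in mouse 19.

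In the 9 remaining higher genes, mice 17 and 19 had the highest values of the 10 arrays. Cyp2e1, a cytochrome P450 that oxidizes small solvents and ethanol, read 4.00 and 3.57 in these mice, 2.71 to 2.86 in the other D3 mice and 2.00 to 2.66 in D1. Stxbp4 read 3.49 and 3.72 against -0.17 to 0.02 in the other D3 mice and -0.47 to -0.21 in D1. Tnnc2, the fast skeletal troponin C, read 6.04 and 6.31 against -1.84 to -1.63 and -2.25 to -1.86. Differences for Ly6g6e (1.31), Stfa1 (1.09), Ces2g (0.67), Plpp7 (0.67) and Shisa2 (0.63) became 0.12 to 0.42 without these mice.

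Of the lower genes, Sparc, a collagen-binding matrix protein, read 2.12 to 2.34 in D1 and 1.67, 1.34, 2.01, 1.14 and 1.91 in mice 16 to 20. The difference was -0.62 (SE 0.15), and -0.37 without mice 17 and 19, whose values were the lowest. Cav1, the coat protein of caveolae in endothelial and alveolar type 1 cells, differed by -0.59 (SE 0.15), or -0.34 without them. Timp3, a matrix-bound inhibitor of metalloproteinases, differed by -0.60 (SE 0.18), or -0.33. Myadm, a membrane protein of the MAL family, read 0.58 to 1.00 in D1 and 0.55, 0.16, -0.15, -0.48 and 0.50 in mice 16 to 20. Its difference of -0.76 (SE 0.19) was -0.58 without mice 17 and 19, and the D2 mice, at 0.29 to 0.46, lay within the range of D3. Slc43a3 (-0.74) and Fam78b (-0.73) were -0.41 and -0.39 without them, and the Fam78b mean rested on mouse 17 at -0.51 against 1.04 to 1.34 in the other D3 mice.

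The largest mean differences regardless of p were those of muscle and squamous epithelium genes on the higher side, all with their high values in mice 17 and 19. Acta1, skeletal muscle actin, had a mean difference of 3.73 (SE 1.95), with 7.07 and 7.39 in mice 17 and 19 and -2.42 to -1.85 in the other D3 mice, against -2.63 to -1.68 in D1. Myl1, Tnni2 and Tnnc2 of the muscle sarcomere had 3.45, 3.31 and 3.46. Krt13, a keratin of squamous mucosa, and Crct1, a gene of the epidermal differentiation complex, were well above background on 1 of 5 D1 and 3 of 5 D3 arrays and would not have met the filter without their D3 arrays, so no size is given for their difference. Krt13 read 5.67 and 6.01 in mice 17 and 19 and Crct1 7.81 and 8.41. The 4 muscle genes differed by -0.05 to 0.31 without those mice. On the lower side, Mnd1, a meiotic recombination protein, had -1.16 (SE 0.53, and -1.05 without those mice), but its D1 mice alone ranged from -3.03 to -0.03. Cxcl5, a chemokine that attracts neutrophils, read -3.82 to -0.85 in D1 and -4.13 to -3.15 in D3, a difference of -0.84 (SE 0.49) with overlap, or -0.88 without those mice. It was -0.34 without D1 mouse 9, the highest of the 10. The vehicle mice ranged from -2.99 to 2.12 for this gene. Kitl, the ligand of the receptor Kit, had -0.82 (SE 0.35), or -0.22 without mice 17 and 19, with 1.51 and 0.87 in mice 17 and 19, 2.21 and 2.73 in mice 18 and 20, and mouse 16 above the D1 mice, which read 2.83 to 3.06. Slc26a4, an anion exchanger, had -0.76 (SE 0.44), or -1.003 without them and -0.40 without mouse 18. None of these passed.

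Of the AhR targets, 9 of 10 were tested. At the unadjusted limit 1 was higher and 0 were lower, beside 3.05% and 6.45% of all probes, and their median difference was 0.07. After centring on the median 0 were higher and the median was 0.0082. Without mice 17 and 19 the median was -0.02 and the 1 higher member was Cyp1a1. The promoters of the 5 targets described next are shown for the core letters of the AhR element, whether they hold them or not. They are 300-base windows around the start, most of it upstream, from RefSeq, build GRCm38.p6, each on its own strand, and capitals mark the letters GCGTG or their reverse complement CACGC. A match is a description and not a binding site. Of all 32851 promoters of 300 bases, 32.4% hold the letters.

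Cyp1a1, chr9:57697363-57697662, + strand: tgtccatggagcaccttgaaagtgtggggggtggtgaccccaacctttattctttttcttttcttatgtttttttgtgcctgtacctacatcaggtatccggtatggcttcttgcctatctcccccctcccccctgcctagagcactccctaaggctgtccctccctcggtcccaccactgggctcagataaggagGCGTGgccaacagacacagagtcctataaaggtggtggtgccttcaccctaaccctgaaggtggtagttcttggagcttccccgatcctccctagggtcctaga
Cyp1b1, chr17:79715012-79715311, - strand: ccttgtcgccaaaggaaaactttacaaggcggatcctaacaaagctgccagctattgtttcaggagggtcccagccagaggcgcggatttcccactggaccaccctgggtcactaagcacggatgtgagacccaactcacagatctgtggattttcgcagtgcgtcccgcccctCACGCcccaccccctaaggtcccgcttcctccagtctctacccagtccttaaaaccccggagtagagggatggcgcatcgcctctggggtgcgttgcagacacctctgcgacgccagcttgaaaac
Ahrr, chr13:74292282-74292581, - strand: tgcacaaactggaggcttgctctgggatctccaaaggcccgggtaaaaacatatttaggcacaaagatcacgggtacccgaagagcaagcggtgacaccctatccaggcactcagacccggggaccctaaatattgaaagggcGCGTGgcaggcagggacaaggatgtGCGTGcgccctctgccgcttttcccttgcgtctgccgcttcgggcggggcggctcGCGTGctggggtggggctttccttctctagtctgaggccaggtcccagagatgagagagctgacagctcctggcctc
Tiparp, chr3:65528197-65528496, + strand: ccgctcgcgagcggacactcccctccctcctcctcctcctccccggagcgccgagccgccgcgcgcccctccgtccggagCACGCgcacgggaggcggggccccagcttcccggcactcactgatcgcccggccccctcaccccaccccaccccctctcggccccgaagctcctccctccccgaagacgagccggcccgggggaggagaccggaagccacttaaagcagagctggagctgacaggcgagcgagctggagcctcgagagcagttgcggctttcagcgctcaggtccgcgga
Nqo1, chr8:107403156-107403455, - strand: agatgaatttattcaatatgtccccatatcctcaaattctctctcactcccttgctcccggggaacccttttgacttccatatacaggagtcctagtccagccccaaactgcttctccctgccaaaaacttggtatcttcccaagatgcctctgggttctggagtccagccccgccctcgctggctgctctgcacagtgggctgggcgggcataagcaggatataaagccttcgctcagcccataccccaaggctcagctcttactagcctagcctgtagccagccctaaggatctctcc

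Cyp1a1, Cyp1b1 and Tiparp each have 1 match in this window, Ahrr has 3 and Nqo1 has 0. Cyp1a1 read 0.46, 0.43, 0.30, 0.01 and 0.81 in D1 and 0.78, 0.75, 0.75, 0.15 and 0.88 in D3. The groups overlapped, with mouse 19 low, and the difference was 0.26 (SE 0.16, 95% interval -0.10 to 0.62, adjusted p = 0.556), or 0.40 without mice 17 and 19 and 0.16 without mouse 9. It was well above background on 3 of 5 D1 and 4 of 5 D3 arrays. The vehicle mice read 1.12 to 2.99, above every dosed mouse. Cyp1b1 differed by -0.07 (SE 0.15, 95% interval -0.39 to 0.26), or -0.25 without those mice. Ahrr, the repressor of AhR that AhR itself induces, differed by 0.06 (SE 0.07, 95% interval -0.10 to 0.22), at -0.54 to -0.29 in D1 and -0.40 to -0.19 in D3. It was well above background on every D1 and D3 array but on 0 of the 5 vehicle arrays, whose values of -0.85 to -0.61 therefore give no measured level. Tiparp, an ADP-ribosyltransferase that curbs AhR, differed by -0.03 (SE 0.09). Leaving out mice 17 and 19 gave 0.04 for Ahrr and 0.04 for Tiparp. The 95% intervals of these 4 genes lay between -0.39 and 0.62, all including 0, which does not show that the doses act alike.

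Nqo1, a quinone reductase under AhR and NRF2, was the target with the smallest p. It read -1.64, -1.75, -1.38, -1.57 and -1.58 in D1 and -0.95, -0.48, -1.43, -0.19 and -1.51 in D3. Mice 17, 19 and 16 were above every D1 mouse and mice 18 and 20 were among them. The difference was 0.67 (SE 0.23, adjusted p = 0.515) and 0.29 without mice 17 and 19. Aldh3a1, an aldehyde dehydrogenase of surface epithelia, had 1.13 (SE 0.68) and -0.11 without them. Among 23 NRF2 targets tested, 2 were higher at the unadjusted limit, beside 3.05% of all probes, Nqo1 and the export pump Abcc1 (0.26, SE 0.10), and 0 were so without mice 17 and 19. The median of the list was 0.09, or 0.01 without them, and after centring on the median it was -0.01.

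Of 24 p53 targets tested, 0 were higher and 4 were lower at the unadjusted limit, beside 6.45% of all probes lower, with a median of -0.08. With mice 17 and 19 left out, 1 was higher (Trp53inp1, 0.21) and 2 were lower (Sesn2 and Cdkn1a), with a median of -0.03. Sesn2, which restrains mTORC1 under stress, read -1.06 to -0.80 in D1 and -1.99 to -1.11 in D3 without overlap, a difference of -0.57 (SE 0.15, adjusted p = 0.515), or -0.38 without mice 17 and 19. The excision repair nuclease Ercc5 (-0.28), the stress cytokine Gdf15 (-0.30) and the death receptor Fas (-0.28) overlapped between the groups, and had -0.15, -0.15 and -0.12 without those mice. The 4 lower members became 2 after loess of the scanner signals and 5 after centring on the median. In those scalings 1392 and 3263 of 31488 probes were lower. With all mice, the intervals of Cdkn1a, Ccng1 and Mdm2 included 0. Cdkn1a differed by 0.09 (SE 0.22) and read -0.57 and -0.45 in mice 17 and 19 against -1.50 to -1.38 in the other D3 mice and -1.44 to -0.92 in D1, which turned its difference to -0.29 without those mice. Ccng1, a cyclin that p53 induces, differed by 0.40 (SE 0.22), or 0.04 without them. Mdm2 differed by -0.05 (SE 0.08), or 0.05. Among 29 DNA repair genes tested, 1 was higher and 1 was lower, beside 3.05% and 6.45% of all probes. They were Mgmt, which removes alkyl groups from guanine (0.50, SE 0.16), and Rad18, a ubiquitin ligase of damage bypass (-0.29, SE 0.10). These were 0.24 and -0.20 without mice 17 and 19.

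Of 14 clock output genes tested, 3 were higher and 0 lower at the unadjusted limit, beside 3.05% of all probes higher, with a median of 0.12. Leaving out mice 17 and 19 gave a count of 3 and 0, made up of Hlf, Dbp and Tef (0.47). The median was then 0.23, and 13 of 14 differences were positive. Members read on the same arrays are not replicates, and the list level overlapped between the groups. It was -0.36 to 0.50 in D1, and 0.53, 0.54 and 0.10 in D3 mice 16, 18 and 20. After centring on the median 1 member was higher, beside 354 of 31488 probes, and the median was 0.03. The transcription factor Hlf read 0.32 to 0.92 in D1 and 0.65 to 1.54 in D3, a difference of 0.51 (SE 0.19), or 0.64 without mice 17 and 19. The deubiquitinase Usp2 had 0.72 (SE 0.27) and the repressor Bhlhe40 0.36 (SE 0.15), and these did not reach the limit without those mice. Dbp, which activates D-box genes at the peak of the output phase, read -0.93, -1.89, -0.41, 1.21 and 0.43 in D1 and 1.52, -0.42, 1.54, 0.17 and 0.11 in D3. These ranges overlapped widely, and the difference of 0.90 had an SE of 0.57 (95% interval -0.35 to 2.15), against 1.38 without those mice and 0.51 without mouse 7. The D2 mice were at 0.79 to 2.44 and the vehicle mice at -1.95 to 0.42. Nr1d1, a repressor of Arntl, differed by 0.45 (SE 0.28) and Per2 by 0.06 (SE 0.15), or 0.62 and 0.21. With 1 mouse left out, Nr1d1 ranged from 0.23 (mouse 7) to 0.62. Of the opposite phase, 5 genes were tested, and Clock was lower at the unadjusted limit (-0.26, SE 0.08, and -0.17). Arntl read -0.66 to 0.87 in D1 and -0.86 to 0.51 in D3, a difference of -0.34 (SE 0.31), or -0.63 without mice 17 and 19, and from -0.54 (without mouse 9) to -0.15 (without mouse 7) with 1 mouse left out. Mouse 9 in D1 and mice 16 and 18 in D3 had high Dbp with low Arntl, and mouse 7 had the reverse. The hour of collection of each mouse is not given in the sources used here.

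Sspn, sarcospan of the dystrophin complex, had the smallest p among the genes fixed by name. It read 0.80, 1.13, 0.89, 1.38 and 1.23 in D1 and 1.52, 1.58, 1.38, 1.71 and 1.59 in D3, touching at mice 9 and 18. The difference was 0.47 (SE 0.11, adjusted p = 0.515) and 0.41 without mice 17 and 19. The vehicle mice spanned 0.73 to 1.26 and the D2 mice 1.12 to 1.49.

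**Figure D2:**
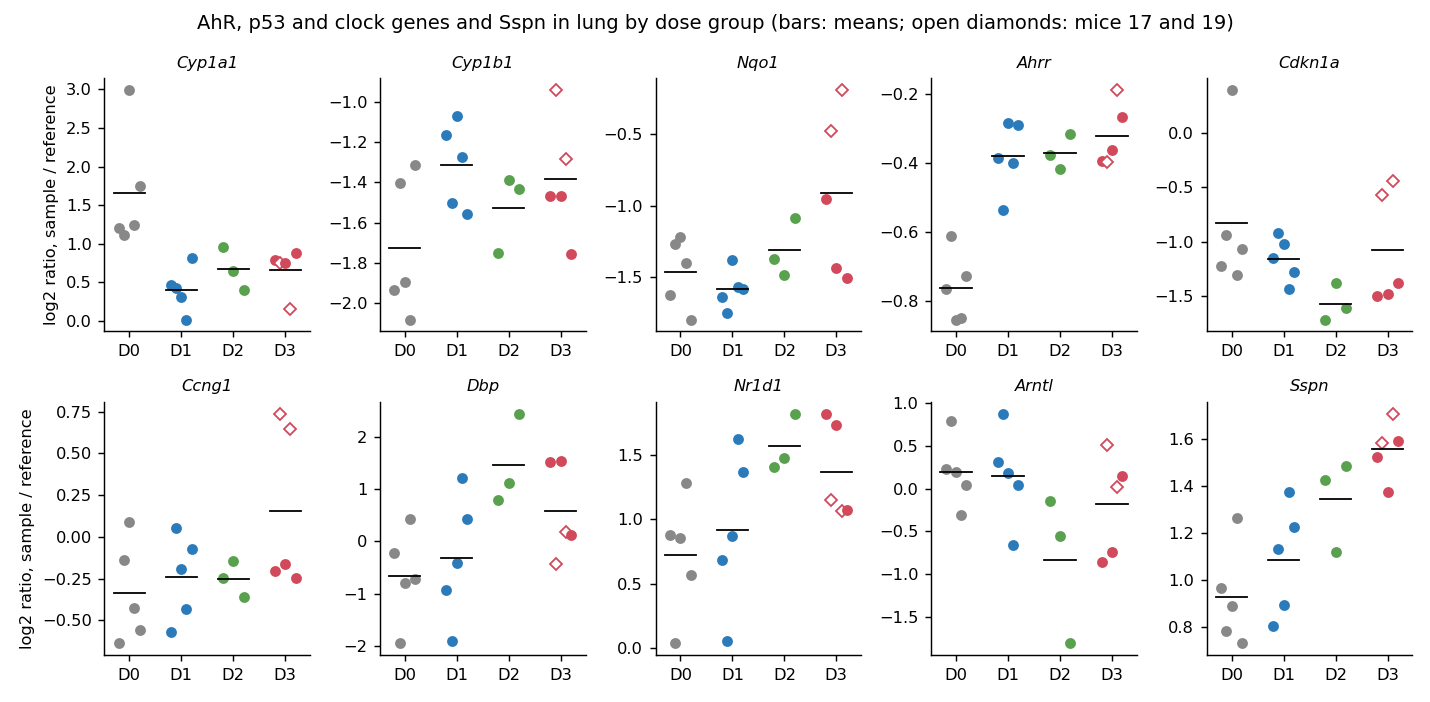
Log2 ratio of 10 genes on every lung array by dose group, with group means as bars and D3 mice 17 and 19 as open diamonds. The vehicle mice lie above all dosed mice in Cyp1a1, the vehicle values of Ahrr are not well above background, and in Nqo1, Cdkn1a and Ccng1 mice 17 and 19 lie above the other D3 mice.

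Of 10 antibody genes tested, 4 were higher and 0 lower at the unadjusted limit, beside 3.05% of all probes higher, with a median of 0.26. Mzb1, a chaperone of the antibody secretory pathway, read -3.87 to -3.55 in D1 and -3.49 to -2.90 in D3 without overlap, a difference of 0.42 (SE 0.12, adjusted p = 0.515). Pou2af1, the B cell coactivator of octamer promoters, had 0.51 (SE 0.21), Irf4, which drives plasma cell formation, 0.44 (SE 0.19), and Fcrla, an intracellular Fc receptor relative of B cells, 0.54 (SE 0.24). These were 0.23, 0.26, 0.19 and 0.27 without mice 17 and 19. In that fit 4 members were higher at the limit, 3 of them the same (Mzb1, Pou2af1 and Irf4) and the other Prdm1 (0.22), while Fcrla did not reach it. After centring on the median 0 were. The level of the whole list was -1.12 to -0.97 in D1, and in D3 it was -0.64 and -0.66 in mice 17 and 19 and -1.01 to -0.85 in the others. The B cell marker list was at 1.74 to 1.99 in D1 and at 2.74 in mouse 19 against 1.77 to 2.09 in the other D3 mice, and its part in these differences was not tested.

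Of 19 complement genes tested, 2 were higher and 0 lower, beside 3.05% and 6.45% of all probes, with a median of 0.32, which was 0.02 without mice 17 and 19, when 0 were higher. Cfd, the factor D protease that fat cells secrete, had 2.18 (SE 0.86), and C1s1, a protease of the classical pathway, had 0.44 (SE 0.19). Its partner C1ra, at 0.35 (SE 0.18), did not reach the limit. Of 23 chemokines and cytokines, 1 was higher and 2 were lower, with a median of -0.08, and 0 and 2 without those mice.

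Of 33 extracellular matrix genes tested, 0 were higher and 4 lower at the unadjusted limit, beside 6.45% of all probes lower, and 5 were lower without mice 17 and 19, beside 2.85%. The median of the list was -0.02 beside -0.04 for all probes, and turned to 0.0022 after loess of the scanner signals. Centring on the median gave -0.13 and 8 lower members, beside 3263 of 31488 probes lower. Besides Sparc and Timp3, these 4 were Tnc (tenascin-C, -0.36, SE 0.09, and -0.30 without mice 17 and 19) and Col4a1 of the basement membrane (-0.32, SE 0.12, and -0.16). Tnc read -0.66 to -0.32 in D1 and -1.05 to -0.63 in D3. Of 15 focal adhesion genes, 3 were lower and 0 higher, and without mice 17 and 19 0 were lower and 1 was higher. Loess of the scanner signals left 1 lower and centring on the median gave 6, beside 1392 and 3263 of 31488 probes lower.

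Markers of the gas exchange surface had medians below 0. Lower members are to be read beside 6.45% of all probes lower. Of 9 alveolar type 1 markers tested, 3 were lower, with a median of -0.21: Cav1, the receptor Gprc5a (-0.34, SE 0.13) and the water channel Aqp5 (-0.37, SE 0.14). The list was at 4.09 and 4.10 in mice 17 and 19 and at 4.52 to 4.71 in the other D3 mice, against 4.61 to 4.70 in D1. Of 13 alveolar type 2 markers, 3 were lower, with a median of -0.18: the surfactant protein Sftpd (-0.21, SE 0.09), the chemokine Cxcl15 (-0.20, SE 0.08) and the lipid transporter Abca3 (-0.32, SE 0.14). For type 1 markers, leaving out mice 17 and 19 gave 1 lower (Cav1), 1 higher (Akap5, 0.23) and a median of -0.13, and for type 2 markers 0 in either direction and a median of -0.15. Of 14 endothelial markers, 4 were lower and 1 was higher, with a median of -0.23. Without those mice 1 was lower (Ptprb) and 1 higher (Emcn), with a median of -0.04. The phosphatase Ptprb (-0.48, SE 0.15), von Willebrand factor (Vwf, -0.39, SE 0.15) and the adrenomedullin receptor subunit Ramp2 (-0.25, SE 0.11) were lower, while endomucin (Emcn) was higher by 0.34 (SE 0.13), and by 0.39 without them.

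Skeletal muscle, adipocyte and cardiac muscle markers gave the largest medians of the lists plotted. Of the 27 skeletal muscle markers 18 were tested and 1 was higher at the unadjusted limit, beside 3.05% of all probes. The median of the list was 2.31, which was -0.02 without mice 17 and 19. That gene, replaced by Tnnc2 as the 1 higher member without them, was Myh8, the perinatal myosin heavy chain, at 2.86 (SE 1.27). The muscle enolase Eno3, at 2.60 (SE 1.19), and the fast fibre actinin Actn3, at 2.78 (SE 1.34), did not reach the limit, with a wide spread within D3. All 27 markers on the array were well above background in mice 17 and 19, against 14 to 18 of 27 on the other 8 arrays. Of the 24 keratinocyte markers 13 were tested. Krt13 met the filter only through its D3 arrays and Krt5 had no D1 array well above background, so no median of the list is given. Krt5, a basal keratin, was well above background on 0 of 5 D1 and 3 of 5 D3 arrays, and is not counted as higher and given no size. It read 3.38 and 3.76 in mice 17 and 19. The desmosome protein Dsp (0.81, SE 0.37) and Krt15 (1.94, SE 0.91) did not reach the limit and were likewise highest in those mice. Trp63, the basal cell transcription factor, was lower at the limit, at -0.29 (SE 0.08), and -0.23 without those mice.

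Of 11 adipocyte markers tested, 7 were higher and 0 lower at the unadjusted limit, beside 3.05% of all probes, with a median of 1.75. With mice 17 and 19 left out, 1 was higher and the median was 0.61. Fabp4, the fatty acid carrier of fat cells, had 2.44 (SE 0.86), and the lipid droplet protein Plin1 1.83 (SE 0.65), the hormone adiponectin (Adipoq) 2.04 (SE 0.73) and resistin (Retn) 1.55 (SE 0.55). The list was at 0.66 to 1.33 in D1. In D3 it was at 3.59 and 4.15 in mice 17 and 19, at 2.21 in mouse 16 and at 1.07 and 0.98 in mice 18 and 20. It ranged from 0.47 to 2.02 in D0 and from 0.65 to 3.79 in D2. Of 14 cardiac muscle markers, 0 passed the unadjusted limit in either direction, with a median of 0.98, or 0.40 without those mice. The list ranged from -0.14 to 2.33 in D1 and from 0.65 to 3.36 in D3. What the adipocyte and cardiac muscle markers contribute to the other differences was not tested. For skeletal muscle, a fit that adjusted for the level of that list on each array was made. It left 825 probes higher and 812 lower at the unadjusted limit, against 961 and 2032 in the main fit. The median difference over all probes was then -0.002, against -0.04. Since that level was high in mice 17 and 19 only, the adjustment cannot be told apart from other features of these mice.

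**Figure D3:**
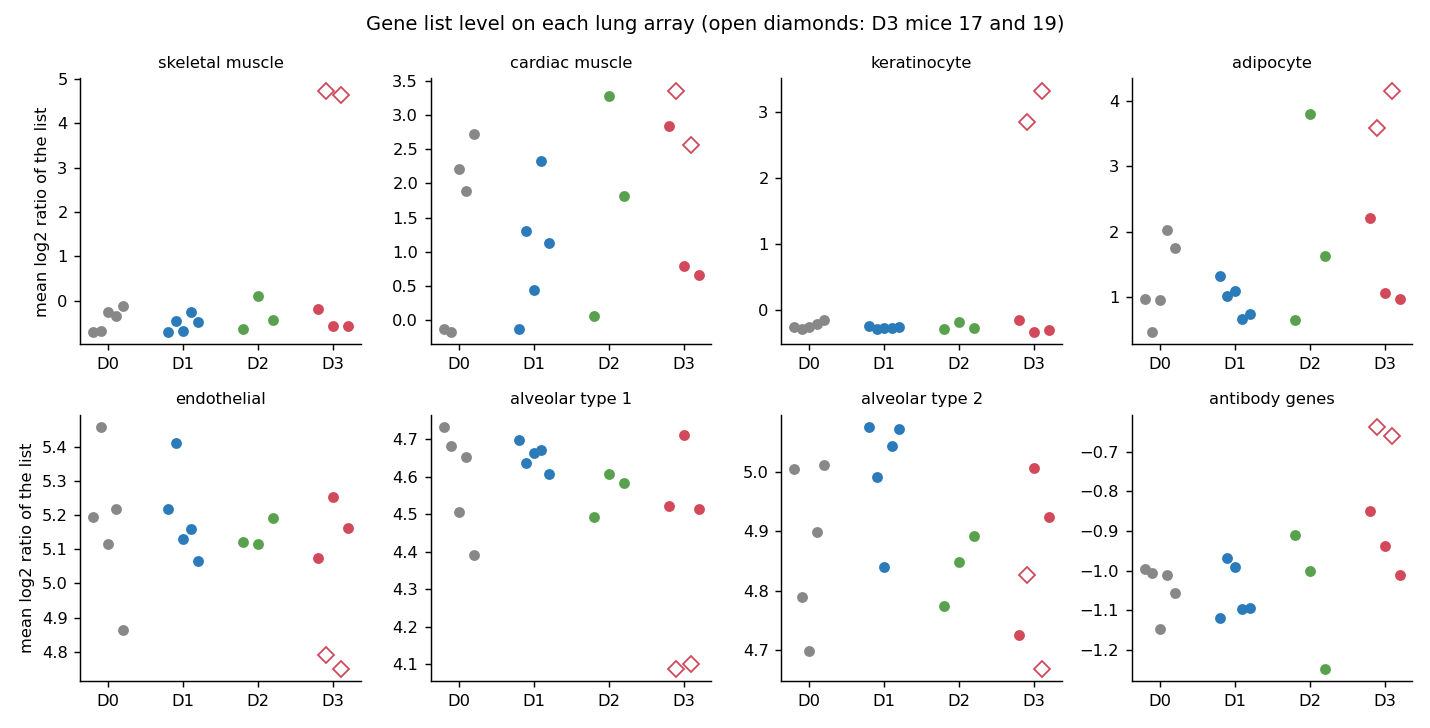
Mean log2 ratio of the genes of 8 lists on each lung array by dose group (open diamonds are D3 mice 17 and 19). Skeletal muscle and keratinocyte levels are high in mice 17 and 19 only among the 18 lung arrays, where the alveolar type 1 and endothelial levels are lowest, while adipocyte and cardiac muscle levels vary within every group.

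**Figure D4:**
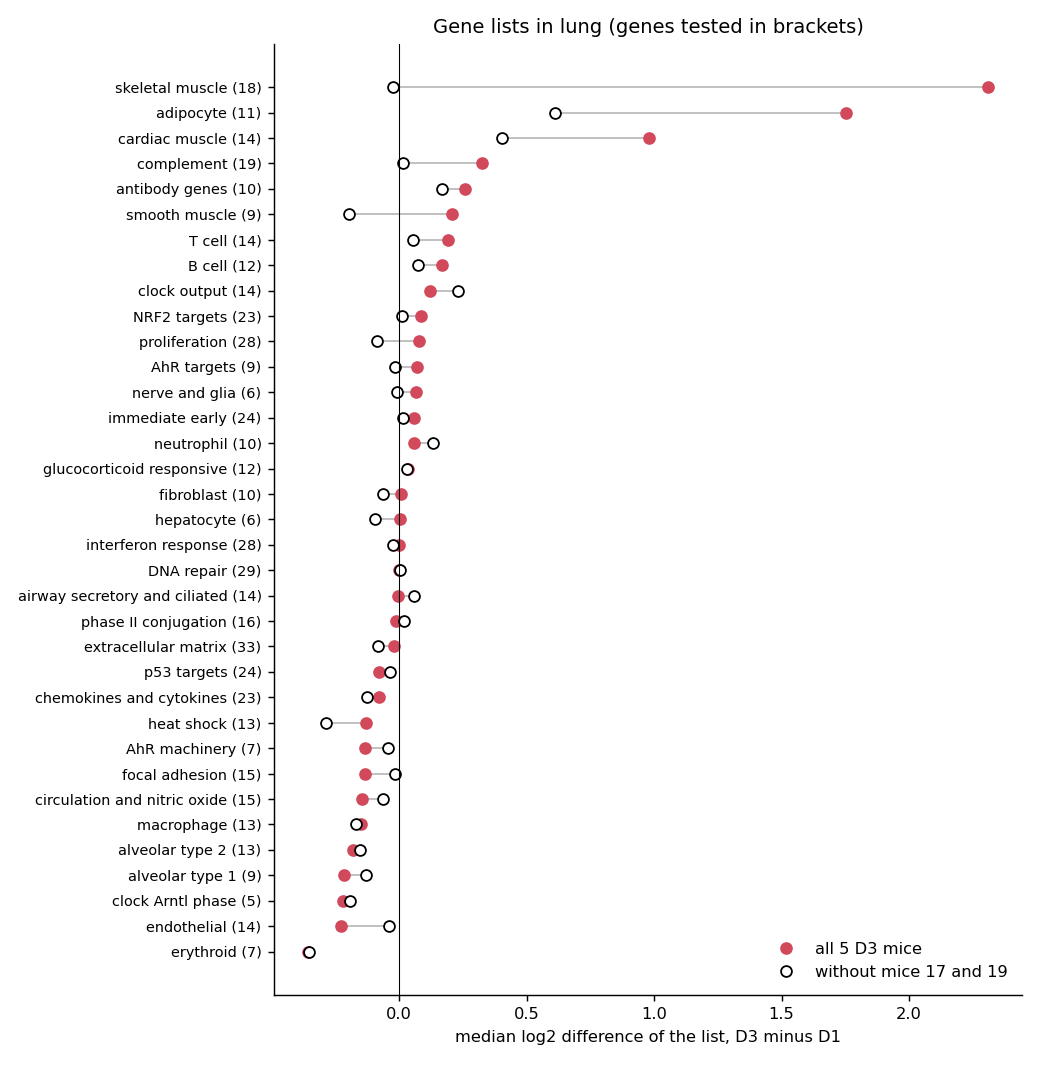
Median log2 difference, D3 minus D1, over the tested genes of each list with at least 5 tested, keratinocyte markers left out, with all 5 D3 mice (red) and without mice 17 and 19 (open). The skeletal muscle median moves from 2.31 to -0.02, and the adipocyte median from 1.75 to 0.61, while the medians of the response lists lie between -0.29 and 0.32 in both.

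The other response lists gave few members at the unadjusted limit, which 3.05% of all probes met as higher and 6.45% as lower. For proliferation (28 tested) and interferon response (28 tested) the counts were 0 higher and 0 lower, with medians of 0.08 and 0.0010, which were -0.03 and -0.12 after centring on the median. Without mice 17 and 19 the counts were again 0, the proliferation median turned to -0.09, with 4 of 28 differences positive in place of 22, and the interferon median to -0.02. Of 24 immediate early genes 2 were higher and 2 lower, or 2 and 1 without those mice. Heat shock genes (13 tested) gave 0 and 0, with a median of -0.13, or 0 and 1 with a median of -0.29. The list stood at 1.20 in D1 mouse 7 and at -0.24 to -0.10 in the other D1 mice, and its median turned to 0.20 without mouse 7 and was -0.03 without mice 7, 17 and 19, an alternative chosen after seeing the data. Of 16 phase II conjugation genes 1 was higher and 1 lower, and of 12 glucocorticoid responsive genes 1 was lower, against 0 and 1 and against 0 without those mice. For 7 genes of the AhR machinery and 15 of circulation and nitric oxide the counts were 0 and 0, with medians of -0.13 and -0.15, and without those mice 2 and 1 were higher. The AhR machinery list, too, was highest in mouse 7 (0.75, against 0.31 to 0.39 in the other D1 mice), and its median was -0.06 without that mouse. Among further cell type lists, erythroid markers (7 tested) had a median of -0.36 with 1 lower, or -0.35 with 0 lower, fibroblast markers (10 tested) had 2 lower, or 1, B cell markers (12 tested) had 1 higher in both, and T cell (14 tested), macrophage (13 tested) and neutrophil markers (10 tested) had 0 in either direction in both. Smooth muscle markers (9 tested) had 1 higher and a median of 0.21 with all mice, and 0 higher, 2 lower (Myh11, -0.47, and Actg2) and a median of -0.20 without mice 17 and 19.

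The difference between D3 and D1 was then set against that in liver and in forestomach of the same mice. No probe had a difference in lung that differed from that in liver past both limits (0% of 32533 probes tested), nor from that in forestomach (0% of 32223 probes), by limma's interaction contrast. The unadjusted limit was met by 2032 genes against liver and 1114 against forestomach. The smallest adjusted p was 0.723 for liver and 1.00 for forestomach. For the Pard3 probe A_55_P1985015 the difference in lung minus that in liver was -0.79 (adjusted p = 0.723), and minus that in forestomach it was -0.48 (adjusted p = 1.00).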

How the data were processed

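The deposited values table holds, per the labels and the study's methods, log2 ratios of Cy5 (sample) to Cy3 (reference) on Agilent SurePrint G3 mouse arrays, which the authors LOWESS-normalized array by array from median signals with no background subtracted. The deposited scanner files (Feature Extraction) hold signal intensities and flags for each spot. The flags chose the probes tested, and the intensities served the alternative scalings (loess, median centring, normexp). Probes flagged in Cy5 as well above background on 3 or more lung arrays were tested. The arrays' log2 values were fitted with limma 3.58.1 in R 4.3.3 on D1 and D3 alone, with Benjamini-Hochberg adjustment over all probes tested. The study used MAANOVA, in whose place limma was used here. A call needs an adjusted p of at most 0.05 and a fold of at least 1.5. The unadjusted limit is 0.05. The number of arrays limits the precision. The p-values set each difference against the spread within D1 and D3, in which mouse and array cannot be separated.

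Probes were named through RefSeq (GRCm38.p6) by accession without version, and 26413 of 55681 probes (47.4%) received a name. Each gene was read from its brightest probe. The text names genes at least 1.5-fold apart without overlap of the groups, the 6 largest differences each way, genes fixed by name, and members of the lists with the smallest p. Members named for their values without mice 17 and 19 were chosen after those were seen. Genes and lists were chosen with earlier results of these data known. Some genes that meet these rules are not reported here, though counts include them. Each array was 1 mouse. The script was tested on simulated data. Alternatives were another scaling, slide as a block, array weights, a muscle covariate, each mouse left out, and the tissues' mouse as a block.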

Additional observations from a re-analysis of the deposited data

Results flagged for a closer look

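Among 84 named genes and probes, each checked in D1 and in D3, 11 of 168 groups had 1 mouse far from the other 4, where chance gives about 1 in 20. In D3, mouse 19 was far out for Spib (3.13, the nearest mouse at 2.09), Tnfrsf13c (2.99, nearest 1.76), Irf4 (-2.07, nearest -2.94) and, on the low side, Cyp1a1 (0.15, nearest 0.75). Mouse 17 was low for Fam78b (-0.51, nearest 1.04), and mouse 16 was high for Mnd1 (-0.996, nearest -2.39). In D1, mouse 9 was low for Cyp2e1 (2.00, nearest 2.47) and high for Crct1 (0.30, nearest -0.05), mouse 10 was high for Actn3 (-2.60, nearest -3.15) and Dsp (3.05, nearest 2.84), and mouse 8 was low for Krt5 (-0.13). Krt5 was well above background on 0 and Crct1 on 1 of the 5 D1 arrays, so these D1 values give no measured level. Values are log2 ratios.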

How the results depend on the processing

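The Pard3 probe passed under 21 of 22 alternatives (differences of -1.38 to -1.24), with adjusted p of 0.00122 to 0.00468 when 1 mouse was left out. All 21 were fitted on the D1 and D3 arrays alone, and 1 only dropped the fold limit, which this probe could not fail. The Pard3 probe did not pass with all 18 lung arrays (adjusted p = 0.362), where ENSMUST00000090438 passed instead (0.70, adjusted p = 0.00619). That alternative for single genes, and the counts without mice 17 and 19, were chosen after seeing the data. With the mouse as a replicate block, 0 probes differed between lung and liver or lung and forestomach, as without it. The block left 2462 of 32533 probes (2304 genes) against liver and 1252 of 32223 (1192 genes) against forestomach at the unadjusted limit. It changed no call. Of 1596 alternative values for 84 genes and probes, 26 turned sign and 1568 kept sign and side, the side being whether the limits were passed. Only the Pard3 probe passed in the main fit, so the side of the others could hardly change. The count does not measure how far sizes moved. Tnnc2, for example, kept its sign while going from 3.46 to 0.29 without mice 17 and 19. Centring on the median turned Cdkn1a (-0.042). Slide as a block turned Cyp1b1 (0.010) and Per2 (-0.013). Array weights turned Mdm2 (0.016), Cdkn1a (-0.13) and Tiparp (5.4e-05). The muscle covariate turned Crct1 (-0.0024, with 1 of 5 D1 arrays well above background, so of no measured size), Acta1 (-0.14), Tnni2 (-0.13), Mdm2 (0.048), Cdkn1a (-0.30), Tiparp (0.045) and Aldh3a1 (-0.14). Without mice 17 and 19, Acta1 (-0.024), Tnni2 (-0.046), Mdm2 (0.047), Cdkn1a (-0.29), Tiparp (0.043) and Aldh3a1 (-0.11) turned. With 1 mouse left out, Per2 ranged from -0.047 to 0.16, Tiparp from -0.097 to 0.012, Cdkn1a from -0.071 to 0.19 and Cyp1b1 from -0.18 to 0.024. The cause was not tested.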

Other observations

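The T cell marker list averaged 1.07 on the log2 ratio scale in D3 mouse 19 and -0.35 to 0.06 on the other 9 arrays of D1 and D3, and the B cell list of the same mouse stood at 2.74. The heat shock list averaged 1.20 in D1 mouse 7 and -0.26 to 0.28 on the other 9 arrays. In the vehicle mice its highest value was 0.99. All 7 erythroid markers tested had lower means in D3 than in D1, both with all mice and without mice 17 and 19. The median over all probes was also below 0, at -0.04 with all mice. At the unadjusted limit 1 of the 7 was lower, and 0 were without mice 17 and 19. The list level overlapped between the groups, at 3.29 to 3.91 in D1 and 3.19 to 3.82 in D3. Members read on the same arrays are not replicates.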
